A study of Mus musculus with 8 samples.

Results

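Tfrc encodes transferrin receptor 1, and its signal was followed through 8 mouse hearts with an array that carries its probe at 20 places. It was found among the non-control rows of the scanner files by its RefSeq transcript, NM_011638, after versions were removed. That rule gave 1 probe out of 59709 and 1 gene out of the 112 gene symbols that could be matched. The gene was chosen by its array signal, namely the spread of its level between these same hearts, so its levels and their spread are a description and carry no test.

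Whole hearts of untreated males, 8 to 12 weeks old, gave total RNA that was freed of ribosomal RNA, amplified by random priming and read as Cy3-labelled cRNA on 1-colour Agilent arrays. The control group held 4 KLF5 floxed mice without Cre recombinase. The other group held 4 aMHC-KLF5-/- mice, in which Cre in cardiomyocytes deleted the floxed Klf5 gene. Both groups carry the floxed alleles, and only the knockout group carries Cre, so the transgene and the deletion cannot be told apart. The deletion is limited to cardiomyocytes, while the RNA came from all cells of the heart. The study asked what the heart's expression profile looks like once cardiomyocytes lose Klf5, a zinc finger transcription factor.

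Transferrin receptor 1 is the membrane protein that binds iron-loaded transferrin and carries it into the cell by endocytosis. Its messenger RNA is stabilised by iron regulatory proteins when iron is scarce and is broken down when iron is plentiful. Red cell precursors and dividing cells are known for high levels of it, and cardiomyocytes need it for iron supply to their mitochondria. Tfrc is also one of the genes that array makers and PCR panels use as a reference for normalisation.

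The level of Tfrc is given as the mean log2 signal over its spots minus the 75th percentile of all probes on that array, so that 0 is that percentile and 1 unit is a doubling. In the control hearts Tfrc was 5.41 in replicate 1, 5.46 in replicate 2, 5.93 in replicate 3 and 4.92 in replicate 4. Replicates 1 and 2 lay close together, replicate 3 lay above them and replicate 4 below them. In the knockout hearts Tfrc was 6.03 in replicate 1, 4.08 in replicate 2, 5.39 in replicate 3 and 6.36 in replicate 4. The knockout group held both the highest heart of the study, replicate 4, and the lowest, replicate 2, and the groups overlapped, whereas separate groups were seen in 5.75% of the probes tested.

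The control mean was 5.43 ± 0.41 (SD, n = 4) and the knockout mean was 5.46 ± 1.00 (SD, n = 4), on the log2 scale relative to the 75th percentile. From the lowest to the highest heart the signal ranged over 2.01-fold in controls and 4.84-fold in knockouts. The SD among knockout hearts was 2.44 times that among controls. This ratio rested on knockout replicate 2. Without that heart the SD among knockouts was 0.49, while without control replicate 3 or 4 the SD among controls was 0.30 or 0.28. Because the RNA came from whole hearts, fewer cells of a type that carries Tfrc and less Tfrc RNA per cell cannot be told apart.

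**Figure D1:**
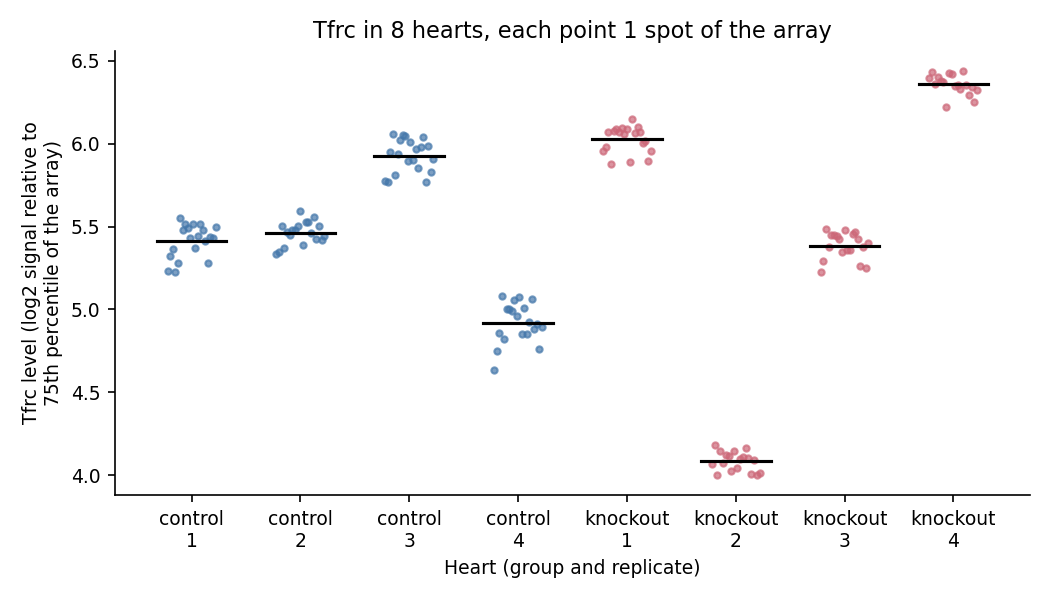
Tfrc level of each spot (points) and the mean over spots (black bars) in 4 control hearts (blue) and 4 knockout hearts (red), in log2 units above the array's 75th percentile. The spots of 1 array form a narrow cluster, while the hearts lie between 4.08 and 6.36.

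Differences of like size were present in the scanner signal before any scaling. The median processed signal over the spots was 14450 in control replicate 1, 15678 in replicate 2, 18358 in replicate 3 and 9388 in replicate 4. In knockout hearts it was 20187 in replicate 1, 5643 in replicate 2, 14558 in replicate 3 and 28559 in replicate 4. All 160 Tfrc spots were well above background and none was saturated. The local background around these spots had a median between 22.5 and 25.0 on each array, so even the dimmest heart was far above it. The 75th percentile to which the arrays were scaled lay between 298 and 355 in signal, a much narrower range than that of Tfrc. Without scaling, the SD of log2 signal was 0.41 among controls and 1.01 among knockouts.

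Spots of the same array agreed closely with one another. The SD over the Tfrc spots of an array ran from 0.058 in knockout replicate 2 to 0.121 in control replicate 4, on the log2 scale. The standard error of a heart's mean over its spots was therefore between 0.014 and 0.027. Pooled over the arrays of a group, the SD between spots was 0.099 in controls and 0.070 in knockouts. The SD between hearts was 4.16 times the SD between spots in controls and 14.3 times in knockouts. Spots that Feature Extraction marked as outliers were left out. That was 1 spot on control replicate 2, 1 each on knockout replicates 1 and 3, and 2 each on knockout replicates 2 and 4. All lay at rows 1 and 10 of the array, where control replicate 4 kept dim spots of 4.63 and 4.75. The part of these omissions in the contrast between groups was not tested. Spots of 1 array share the RNA, the labelling and the hybridisation of 1 mouse, so their spread does not hold the error of those steps. Each mouse had 1 array, so that error and a difference between mice cannot be told apart.

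The order of the hearts from low to high was knockout 2, control 4, knockout 3, control 1, control 2, control 3, knockout 1 and knockout 4, where the number is the replicate. Of the 28 pairs of hearts, 24 had no overlap between their spots. All 6 pairs of knockout hearts and 5 of the 6 pairs of control hearts were separated in this way. The spots of knockout replicate 3, control replicate 1 and control replicate 2 overlapped. Control replicate 1 was above knockout replicate 3 by 0.03 on the log2 scale, at 16 of 19 spots compared place by place, and control replicate 2 was above control replicate 1 by 0.05, at 11 of 19. Control replicate 2 was above knockout replicate 3 by 0.08, at 16 of 18 places. Control replicate 3 and knockout replicate 1 differed by 0.10 and also overlapped, although knockout replicate 1 was higher at 18 of 19 spots compared place by place. The other neighbours were separated at every spot compared, by 0.33 to 0.84 on the log2 scale.

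The 20 Tfrc spots lie in the same places on every array, which allows a comparison place by place. Feature Extraction had marked 7 of the 160 spots as outliers, and 18 places were usable on all 8 arrays. At each of these 18 places knockout replicate 2 was the lowest heart, control replicate 4 the next lowest and knockout replicate 4 the highest. Differences between hearts held 98.7% of the sum of squares of these values, differences between places 0.704% and the remainder 0.572%. The SD among knockout hearts ran from 0.97 to 1.06 from place to place and that among controls from 0.37 to 0.45, so it was larger in knockouts at all 18 places.

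Part of the small spread within an array was shared between arrays. A spot that was dim for its array tended to be dim on the others as well, with a positive correlation of spot deviations in 27 of 28 pairs of arrays and a median of 0.57. These correlations are over spots in the same places, which share probe synthesis and position, and describe the array and not the mice. The 10 spots in the upper rows and the 10 in the lower rows gave nearly the same levels. Their difference lay between -0.05 and 0.03 on the log2 scale on all arrays. The SD among knockout hearts was 1.01 from the upper spots and 1.00 from the lower spots, and among controls 0.42 and 0.41.

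**Figure D2:**
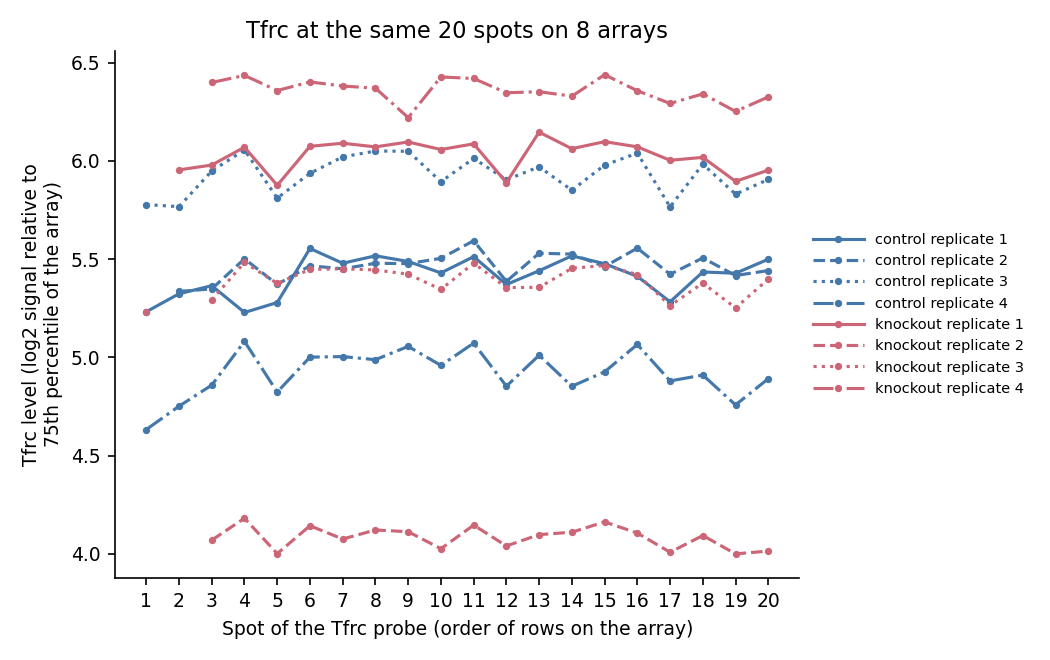
Tfrc level at each of its 20 spots, ordered by row on the array, with 1 line per heart (controls blue, knockouts red; line style by replicate) as log2 signal relative to the 75th percentile. The lines run in parallel with small shared dips, knockout replicate 4 is on top and knockout replicate 2 is at the bottom, and gaps are spots marked as outliers.

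The array holds 14 other genes with 20 spots each, mostly widely used reference genes, of which 13 were bright enough to be tested. They allow the same measure of spread to be set beside that of Tfrc. Over both groups, the SD between hearts within a group was 0.77 for Tfrc and the SD between spots was 0.086, a ratio of 8.94. Among the other 13 genes the SD between hearts ran from 0.047 to 0.426 with a median of 0.098. Their ratio of hearts to spots ran from 0.328 to 7.85 with a median of 1.51. Tfrc thus had the widest spread between hearts of these 14 genes, which is the property for which it was chosen.

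Tfrc was not alone among these genes in a large ratio. B2m, which encodes beta-2 microglobulin of the MHC class I complex, had an SD of 0.43 among controls and 0.42 among knockouts and a ratio of 7.85. Actb, a cytoplasmic actin, had 0.41 and 0.36 and a ratio of 7.47, and Tuba1b, an alpha-tubulin, had 0.19 and 0.20 and a ratio of 3.79. At the other end, Gk, a glycerol kinase, had a ratio of 0.328, with a level near -0.93 where the SD between spots was 0.298. The SD among knockouts was above that among controls in 6 of the 13 genes, whereas in Tfrc it was 1.00 against 0.41.

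The hearts were ordered otherwise for the next most variable of these genes. B2m was higher in control replicates 4 and 1, at 7.72 and 7.67, than in any knockout heart. Among knockout hearts it was highest in replicate 2, at 7.60, where Tfrc was lowest. It was nearly as high, at 7.58, in replicate 4, where Tfrc was highest, and was 6.75 and 7.06 in replicates 1 and 3. Actb was 5.75 in knockout replicate 2, again the highest of its group. Measured against the mean of the other 3 knockout hearts, knockout replicate 2 was lower by 1.84 on the log2 scale for Tfrc, or 3.58-fold. For the 13 other genes this difference lay between -0.10 and 0.48. That heart was singled out as the lowest for Tfrc, so the contrast is a description. None of the 13 genes ranked the knockout hearts in the order of Tfrc. Their Pearson correlations with Tfrc over the 8 arrays ran from -0.45 to 0.36, given as a description over arrays that share their scaling.

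**Figure D3:**
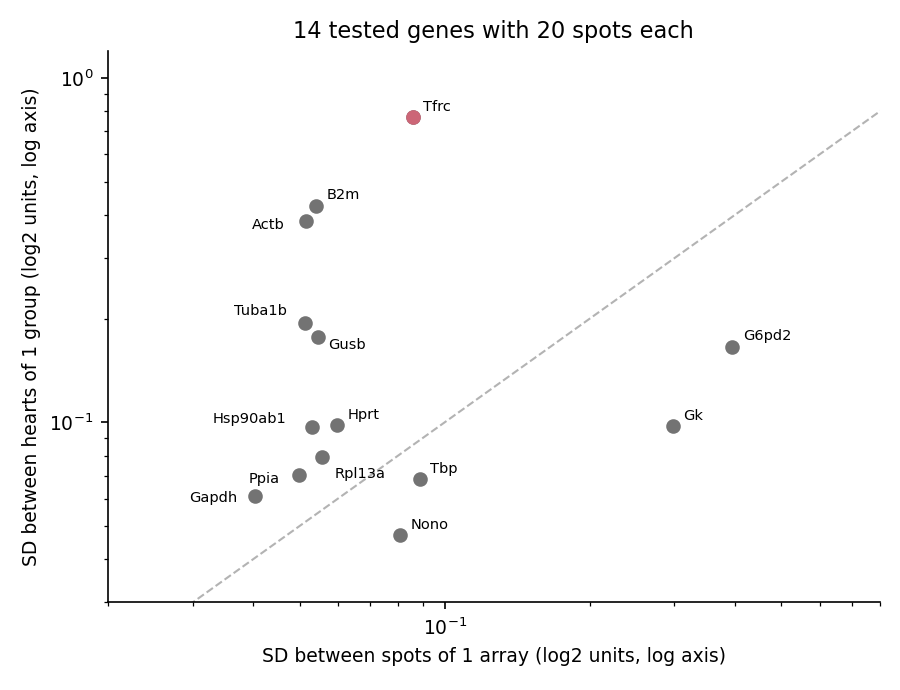
SD between hearts of a group against SD between spots of an array for the 14 tested genes with 20 spots each, both in log2 units on log axes; the dashed line marks equal values. Tfrc (red) has an SD of 0.77 between hearts and 0.086 between spots, above B2m and Actb, while Gk, G6pd2, Nono and Tbp lie below the line.

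Tfrc was also set beside the 27877 other probes that were tested, nearly all of which have a single spot and so carry more spot error. Its mean level exceeded that of 92.0% of tested probes. The median SD between hearts was 0.223 over these probes and 0.145 over the 991 of them whose mean lay within 0.5 log2 units of Tfrc, against 0.77 for Tfrc itself. Among the 991 probes, 12, or 1.21%, had an SD as large. Tfrc was chosen for this spread, so this share and those that follow are a description. Among knockout hearts 8 of the 991 had an SD as large as Tfrc, or 0.807%. Among control hearts this was so for 47, or 4.74%. Over all other tested probes, dim ones included, the share was 2.45% for knockouts and 20.1% for controls. The 8 bright probes as variable among knockouts have no gene symbol, and their correlations with Tfrc over the 8 arrays ran from -0.73 to 0.83.

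Knockout replicate 2 was low for Tfrc and not for bright probes as a whole. Against the mean of the other 3 knockout hearts, the 991 probes had a median difference of -0.02 on the log2 scale in that heart. None of them was as low as the -1.84 of Tfrc. Over all other tested probes 48 were as low. Tfrc was chosen for its spread and this heart was singled out as its lowest, so the ranking is a description.

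**Figure D4:**
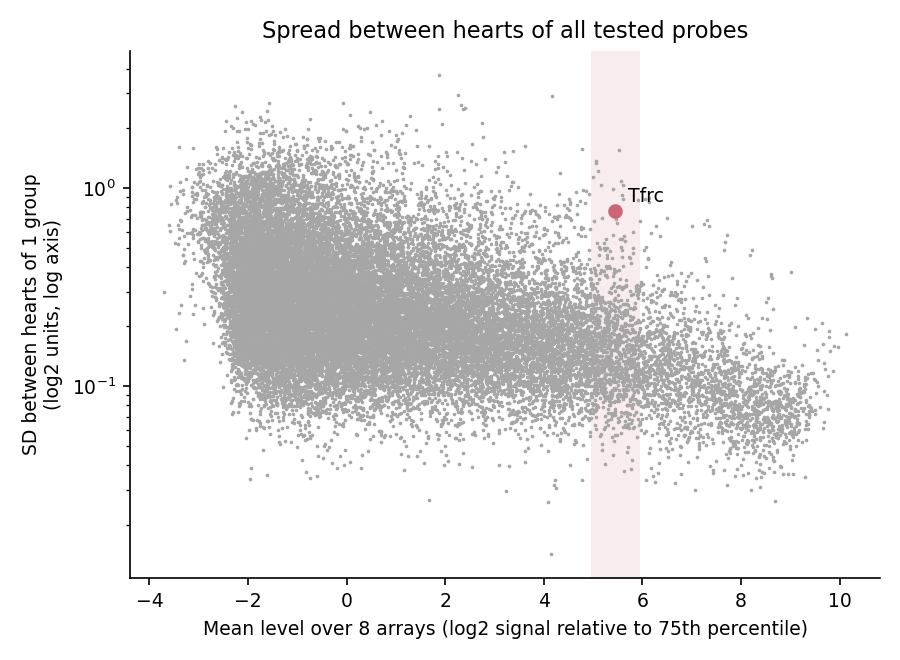
SD between hearts within a group (log2 units, log axis) against mean level over 8 arrays (log2 signal relative to the 75th percentile) for all tested probes (grey) and Tfrc (red); the band spans 0.5 log2 units on either side of Tfrc. Tfrc lies in the upper edge of the band, above the median of 0.145.

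Among knockout hearts the number of detected probes rose as Tfrc fell. The number well above background was 28103 in knockout replicate 4, 34623 in replicate 1, 38181 in replicate 3 and 43290 in replicate 2. This is the order of Tfrc from high to low. The lowest signals of these arrays fell in the same order, from 14.5 through 6.85 and 5.28 to 3.17. Among control hearts the number was 27806 in replicate 1, 29529 in replicate 4, 30098 in replicate 2 and 31459 in replicate 3, and there the heart with the most detected probes had the highest Tfrc. Of the 991 bright probes, 59, or 5.95%, ranked the knockout hearts as Tfrc did, and 22, or 2.22%, ranked them in reverse. Over all other tested probes these shares were 6.09% and 4.31%. The part of array sensitivity in the spread of Tfrc was not tested.

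**Figure D5:**
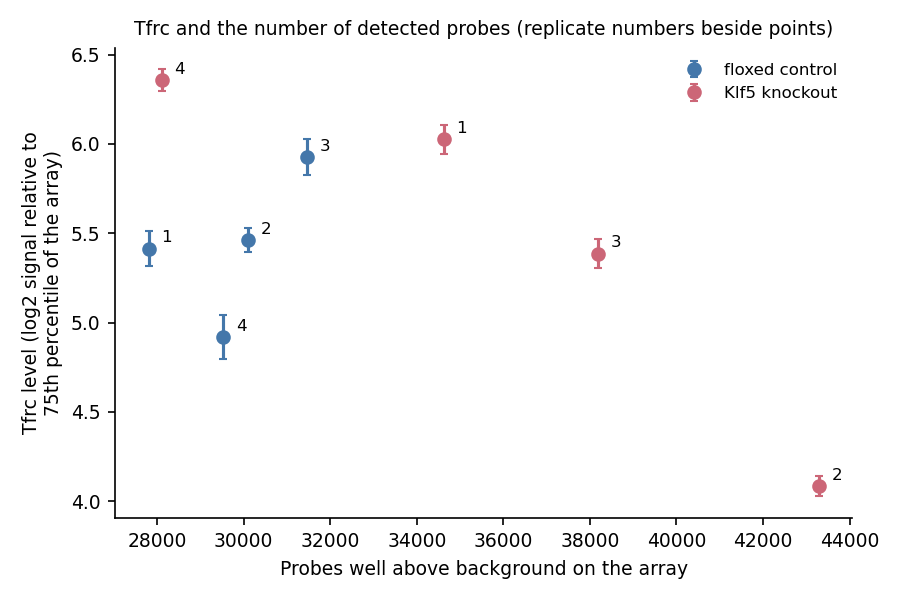
Tfrc level (log2 signal relative to the 75th percentile; bars are the SD over spots) against the number of probes well above background on each array, for control hearts (blue) and knockout hearts (red), with replicate numbers beside the points. Among knockouts Tfrc falls from 6.36 at 28103 probes to 4.08 at 43290, and among controls the lowest heart, at 4.92, has 29529.

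The means of Tfrc in knockout and control hearts lay close together beside the spread between hearts. The gene was chosen for that spread, which sets the error of this comparison, so the fitted values describe the difference and its p is not independent of the choice. The log2 difference, knockout minus control, was 0.03 with an SE of 0.47 and a 95% interval from -1.05 to 1.12 (limma, n = 4 each). The limma adjusted p was 0.990 over all 27878 tested probes, and it lay between 0.748 and 0.995 over the alternatives. In that fit 39 probes were called at an adjusted p under 0.05, which is 0.14% of those tested. The interval spans changes of more than a doubling in either direction, so a group difference of that size was neither shown nor excluded with 4 hearts a group. Without knockout replicate 2 the log2 difference was 0.49 with an SE of 0.30 (limma adjusted p = 0.748), and it was negative when knockout replicate 1, knockout replicate 4 or control replicate 4 was left out.

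Of 37 genes listed for iron handling, which included the ferritins, ferroportin, the iron regulatory proteins and hepcidin, Tfrc was the 1 gene matched to a probe. None of 43 marker genes of heart muscle, red cells and blood, vessels, fibroblasts, smooth muscle, leukocytes and dividing cells was matched. Markers of cells rich in Tfrc were therefore not analysed here, and neither the labelled tissue nor Klf5 could be checked through its genes. All 8 arrays had 1 scan time. The array barcode in the file headers has a first part that the groups never share. An effect of that part and one of the group cannot be told apart. The second part matches the replicate number of each heart, and its values are thus the same in both groups.

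Likeness to Tfrc was measured by the Pearson correlation over the 8 arrays, with no test, among 85 other named genes and 27837 other probes with values on all arrays. The arrays share their scaling, and the genes and probes given are the extremes picked from these. Of the named genes, the gene model Gm13305 had 0.77, the chemokine gene Ccl28 0.77, the model Gm21943 0.60 and the model Gm16513 0.52. The same 4 led after each group mean was subtracted, with 0.77, 0.77, 0.67 and 0.54. The lowest were BC147527 with -0.59 and Gm20823 with -0.48 over the arrays, and BC147527 with -0.70 and Csprs with -0.51 within groups.

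Among these genes Ccl28 and Gm21943 varied as widely as Tfrc or more. Gm21943 had an SD of 1.40 among controls and 1.33 among knockouts. Its lowest knockout heart was replicate 2 and its highest replicate 1. The level of Ccl28, relative to the 75th percentile, was -3.39, -2.38, -1.57 and -1.95 in control replicates 1 to 4 and -1.53, -3.66, -2.71 and -1.49 in knockout replicates 1 to 4. Its SD was 0.78 among controls and 1.04 among knockouts. It has 1 spot and was well above background on 7 of the 8 arrays, control replicate 1 being the exception, so that value is uncertain. As for Tfrc, the lowest knockout heart was replicate 2 and the highest replicate 4, while the lowest control was replicate 1. Gm13305, by contrast, had an SD of 0.15 among knockouts.

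Of all tested probes, the 3 with the highest correlation were ASMM9PARTA015193 with 0.99, ASMM9PARTA038945 with 0.96 and ASMM9PARTA033760 with 0.96, which the files do not pair with a gene. They followed the order of Tfrc closely but moved little, with an SD among knockouts of 0.15, 0.16 and 0.12. A correlation above 0.9 was found for 36 probes, or 0.129%, and below -0.9 for 7. Of the 36 probes, 1 had an SD among knockout hearts as large as that of Tfrc, and their median SD was 0.165.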

How the data were processed

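Per the file headers and the submitters' processing notes, the authors' scanner files give spot intensity from Agilent Feature Extraction 11.0.1.1, background-corrected and not scaled between arrays. The files name build mm9 and symbols came from RefSeq on GRCm38.p6, so no coordinates are given. The authors' deposited value table, on a log2 scale with an unstated normalization, served only as an alternative for the count of called probes, since Tfrc is not among its rows used here.

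Intensities were put on the log2 scale. Spots marked as outliers, control spots and 20 probes designed as negative controls were left out, repeated spots were averaged, and each array's 75th percentile over 59709 probes was subtracted. Probes needed at least 3 usable arrays per group and, within at least 1 group, signal well above background throughout. The fit used limma 3.58.1 (R 4.3.3) over 27878 probes with Benjamini-Hochberg adjustment at 0.05. The number of arrays limits precision.

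Tfrc and the gene lists were chosen with earlier results of these data known. Named genes were Tfrc, genes spotted as often (the 3 highest ratios and the lowest in full), the 4 most and 2 least correlated genes, overall and within groups, the 3 most correlated probes, and matched list members. Alternatives covered background correction, scaling, filters, outlier spots, spot averaging, variance model, replicate block and leaving out each array. Scaling to the other genes with 20 spots and leaving out scaling were chosen after seeing the data.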

Additional observations from a re-analysis of the deposited data

Results flagged for a closer look

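Among the named genes and probes other than Tfrc, 28 groups of 4 hearts were examined for 1 heart far from the other 3, and 1 group had such a heart. A rate of 1 in 20 would give about 1.4 for independent groups not picked by their values. These genes and probes, Tuba1b included, were picked by spread or correlation in the same data. The count is therefore a description and no measure of chance. For Tuba1b the level of control replicate 4 was 6.73, while the other 3 controls lay between 7.07 and 7.13, a gap of 0.863 of the range. Tfrc itself, chosen for the spread of its levels, is left out of this count.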

How the results depend on the processing

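The spread of Tfrc between hearts stayed between 0.41 and 0.47 (SD) among controls and between 0.98 and 1.04 among knockouts under each change of background correction, scaling, outlier spots and spot averaging. The mean levels moved with the reference point. They were 2.52 in controls and 2.59 in knockouts with the percentile taken over detected probes, 7.97 and 7.94 with median centring, 1.45 and 1.38 relative to the other genes with 20 spots, and 13.77 and 13.83 without scaling. The group difference, 0.03, was -0.028 with median centring and -0.069 relative to the other genes with 20 spots. When 1 heart was left out it ran from -0.27 to 0.49, with -0.15 without knockout replicate 1, -0.27 without knockout replicate 4 and -0.14 without control replicate 4. No alternative brought it past the threshold. Over these omissions the SD ran from 0.28 to 0.51 among controls and from 0.49 to 1.23 among knockouts, and the mean from 5.26 to 5.60 and from 5.17 to 5.92. The number of called probes was 22 in the authors' values and 11 after restriction to probes seen on all arrays, both with fewer probes tested, and ran from 28 to 79 over the omissions, with 79 without control replicate 1 and 73 without knockout replicate 4.

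The deviations of same-numbered hearts correlated over probes by 0.06, -0.05, 0.36 and 0.24 for numbers 1 to 4, and those of differently numbered hearts by -0.29 to 0.09. Numbers 3 and 4 thus stood above the rest and numbers 1 and 2 did not, so the numbers, which equal a part of the array barcode, were not taken as pairs. Hearts of numbers 3 and 4 correlated best with their own number, while knockout replicate 1 and both hearts of number 2 did not. With the replicate block the Tfrc difference stayed at 0.03 (limma adjusted p = 0.987) and 34 probes were called. The authors' value table gave no Tfrc value. With 4 hearts a group the SDs themselves are imprecise.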
